A study of Mus musculus with 8 samples.

Results

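The poly(A) tails of transcripts in normal mouse testis were described from the 2 wild-type, vehicle-injected mice of a Nanopore direct RNA sequencing series of 8 mice. Both were adult males with wild-type Tent5c on both alleles (Tent5c wt/wt). They had received 1 intraperitoneal injection of the vehicle, equal parts of DMSO and water, and their testes were taken 4 weeks later. RNA came from the whole organ without cell sorting, so that each value pools all the cells that carried a transcript. Each mouse gave 1 library, called replicate 1 or replicate 2, and each library was sequenced in its own multiplexed run with 3 extracts of the other groups, so mouse and run cannot be told apart. A transcript was included when it had at least 10 reads in both libraries, which 1475 of the 2783 transcripts of the deposited table did. These 1475 transcripts carried 1238 gene or contig names, and 1351 of them were protein coding in the annotation.

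A poly(A) tail is a run of adenosines added to the 3′ end of most mRNAs in the nucleus. In the cytoplasm it is bound by poly(A)-binding proteins and is usually shortened with time, and its removal is a common first step of mRNA decay. Male germ cells store many mRNAs for days, because transcription stops in elongating spermatids before the proteins of the sperm head and tail are complete. Their tails are shortened and lengthened during this storage. Mitochondria make their own mRNAs and give them short tails with a separate enzyme. In direct RNA sequencing 1 read is 1 RNA molecule, and the tail length of that molecule is read from the current.

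The deposited table held 50757 reads with a tail for replicate 1 and 72138 for replicate 2. It is a part of each library, since the authors had kept only contigs with 10 or more reads in both replicates of some group, which all 2783 transcripts met. Totals, shares of all reads and CPM therefore refer to the reads of this table and not to the full depth. The 1475 transcripts took 90.4% and 88.9% of them, and their median read number was 18 and 25. The label of testis was borne out by the genes of spermatid chromatin (protamines, transition proteins and testis histones), which took 91751 and 102567 CPM (counts scaled to the deposited reads of the library). Markers of Leydig cells, the androgen-producing cells between the tubules, took 5773 and 6155 CPM. Most of this was Insl3, with 4059 and 4186 CPM. The paper reports Insl3 mRNA in sorted spermatids as well. How much of the Insl3 level came from Leydig cells was not tested. Sertoli cell markers, from the somatic cells that nurse the germ cells, took 3251 and 3479 CPM. The markers of macrophages, peritubular cells and erythroid cells stayed between 83.2 and 305 CPM for each list, and the table listed no endothelial marker. A marker with few reads in every group would have been removed by that filter. Fewer cells of a type and less RNA per cell cannot be told apart in such levels.

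Most tails were long. The mean over all reads was 138.7 nt in replicate 1 and 140.7 nt in replicate 2, or 139.7 ± 1.39 nt (SD, n = 2), and the medians were 146.5 and 147.3 nt. Tails of 120 to 210 nt made up 53.6% of the reads of replicate 1 (Wilson 95% interval 53.2 to 54.1%) and 53.7% of those of replicate 2 (53.3 to 54.1%). Tails of 30 to 120 nt made up 36.0% (35.6 to 36.4%) and 35.1% (34.7 to 35.4%). Longer tails than 210 nt made up 9.24% and 10.2%, and tails under 30 nt made up 1.15% and 1.01%. These intervals cover counting error only.

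**Figure D1:**
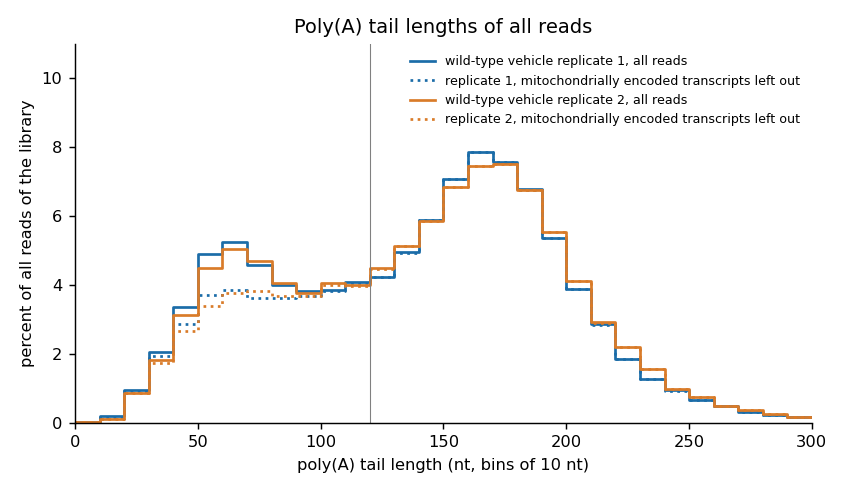
Percent of all reads of a library (y axis) by poly(A) tail length in bins of 10 nt (x axis), with solid lines for all reads of each wild-type vehicle library and dotted lines for the reads left without mitochondrially encoded transcripts. The vertical line marks 120 nt. Both libraries had their highest density near 168 and 169 nt and a smaller mound near 60 to 70 nt that was lower without the mitochondrial reads.

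The distribution had 1 peak in each library under the peak rule used here, at 168 and 169 nt, with a shoulder below it. The rule smooths tail lengths with a Gaussian kernel of 15 nt and asks for a prominence of at least 20% of the highest density. In bins of 10 nt the shoulder was highest at 60 to 70 nt, with 5.25% and 5.05% of the reads. The lowest bin between it and the main peak was 90 to 100 nt in both libraries, with 3.83% and 3.78%. Mitochondrially encoded transcripts contributed to this shoulder. Their mean tail was 65.7 and 66.7 nt, and 98.5% and 98.1% of their reads lay at 30 to 120 nt. Without them the bin of 60 to 70 nt held 4.06% and 3.95% of the reads and that of 90 to 100 nt held 3.88% and 3.84%, so that the density was nearly level over this range, and the overall mean was 142.4 and 144.2 nt. Reads placed on chromosome 1 copies of mitochondrial DNA, described below, were not left out.

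Transcripts differed in mean tail length over a narrow range around a long typical tail. The mean over both libraries had a median of 148.2 nt over the 1475 transcripts (146.6 nt in replicate 1 and 149.5 nt in replicate 2). Its 5th and 95th percentiles were 105.3 and 178.4 nt, and the extremes were 54.2 and 290.9 nt. In total, 95.8% of the transcripts (1413) lay between 100 and 190 nt, 48 lay under 100 nt and 14 lay at or above 190 nt. In 710 transcripts more than 50% of the reads had tails of 120 to 210 nt in both libraries. In 130 transcripts more than 50% had tails of 30 to 120 nt in both. Only Acrv1 and Gm5373 had more than 50% above 210 nt in both libraries.

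Molecules of 1 transcript differed more from each other than transcripts did. The SD of tails within a transcript was 51.8 nt in replicate 1 and 52.0 nt in replicate 2, and that between transcripts was 26.6 and 26.0 nt. Differences between transcripts made up 20.8% and 19.9% of the variance over reads, and 12.95% and 12.3% when the 10 mitochondrially encoded transcripts were left out. The chromosome 1 copies of mitochondrial DNA described below stayed in. The mean tail of a transcript differed between the libraries by a median of 10.4 nt in absolute value. This was 13.5 nt for transcripts whose smaller read number was 10 to 19 and 3.16 nt for those with at least 100 reads in both. Across transcripts, Pearson's r between the libraries was 0.753 for all 1475 and 0.985 for the 45 with at least 100 reads in both. Transcripts are not independent replicates, and these correlations are descriptions.

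To find transcripts off the typical tail, each library was centred on its median transcript and the centred means were tested with limma. In all, 181 transcripts had tails longer than the median transcript (12.3% of 1475) and 311 had shorter ones (21.1%). With 2 mice, the test rests on 1 residual degree of freedom a transcript and on 7.96 that limma shares over all transcripts. A further dependence was on the reference and the summary. Centred on the mean over all reads, which lies below the median transcript, the counts were 366 longer and 202 shorter, and with the median tail of each transcript they were 74 and 274. Of the 107 genes named here with a call, 59 kept it under each of 9 alternative settings that tested them, and 37 lost it without the trend of the variance on read number. For genes with several transcripts, the transcript with the most reads is called the lead transcript. Among the 1238 lead transcripts, 157 were longer (12.7%) and 280 were shorter (22.6%), and their median tail was 147.2 nt.

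**Figure D2:**
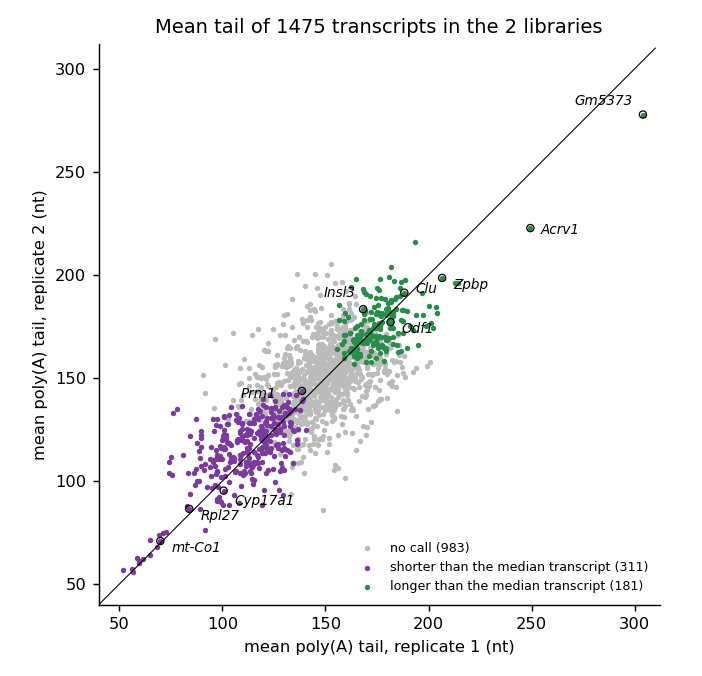
Mean poly(A) tail of each of the 1475 transcripts in replicate 1 (x axis, nt) and replicate 2 (y axis, nt), with the line of equality. Green points are the 181 transcripts longer than the median transcript at an adjusted p under 0.05 (limma), purple points the 311 shorter ones and grey points those without a call. mt-Co1 lies at the short end and Acrv1 and Gm5373 at the long end of both axes.

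The shortest tails belonged to the mitochondrially encoded mRNAs, which specify subunits of the respiratory chain and of ATP synthase. Of 11 such genes read, 10 passed the read minimum, and all 10 were shorter than the median transcript. Their tails ranged from 54.2 nt in mt-Nd6 (51.8 nt in replicate 1 with 30 reads and 56.6 nt in replicate 2 with 51) to 72.9 nt in mt-Co3 (71.1 and 74.6 nt, 354 and 499 reads). The most read of them, mt-Co1, a core subunit of cytochrome c oxidase at chrM:5328-6872 of GRCm38, had 69.9 nt in 743 reads and 70.9 nt in 882 reads. Its difference from the median transcript was -77.6 ± 1.46 nt (SE), with an adjusted p of 2.39e-09. Between these ends, mt-Atp6 had 68.1 and 68.0 nt and mt-Co2 had 61.7 and 62.2 nt, so the libraries gave the same order. Among the complex I mRNAs mt-Nd4 had 56.8 and 55.8 nt and mt-Nd1 had 56.3 and 57.2 nt, and their order differed between the libraries.

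For some mitochondrial mRNAs the tail is also part of the coding message, since the gene ends in the first base of a stop codon and the adenosines of the tail complete it. The annotated coding 3′ ends of 3 such genes are printed first and those of 2 genes with a whole encoded stop codon after them, each 24 bases, 5′ to 3′ as in the mRNA, with the encoded stop codon or its first base in capitals (GRCm38).
mt-Nd4: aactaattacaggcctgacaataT
mt-Cytb: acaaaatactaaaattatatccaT
mt-Co3: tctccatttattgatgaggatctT
mt-Co1: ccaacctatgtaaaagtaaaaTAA
mt-Co2: aactgatctgcttcaataattTAA
The 3 mRNAs annotated to end in the first base of a stop codon had mean tails of 56.3 to 72.9 nt (mt-Nd4, mt-Cytb and mt-Co3). The 7 annotated to end in whole codons spanned 54.2 to 70.4 nt, so the ranges overlapped. These groups follow the annotation, and the ends of the processed mRNAs were not measured. Base 8607 is both the last of mt-Atp6 and the first of mt-Co3. More than these 3 mRNAs may therefore need the tail for their stop codon.

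A short tail was also recorded for 4 pseudogenes on chromosome 1 that are copies of mitochondrial DNA. Gm28661, Atp6-ps and Gm28437 were 100% identical to mitochondrial sequence over their length, and Gm29216 was 99.8% identical over 483 bases of the mt-Co1 region. Their tails were 60.4 nt for Gm28661, 68.1 nt for Atp6-ps, 71.5 nt for Gm29216 and 74.0 nt for Gm28437. The mitochondrial genes they copy had 61.9 nt (mt-Co2), 68.1 nt (mt-Atp6), 70.4 nt (mt-Co1) and 72.9 nt (mt-Co3). Reads cannot be assigned with certainty between such identical sequences. Together, the 10 mitochondrial mRNAs and these 4 copies were the 14 shortest lead transcripts that each library read 20 times or more.

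Among nuclear genes, the mRNAs of cytosolic ribosomal proteins, the protein part of the ribosome, had the shortest tails as a group. Of 74 lead transcripts, 69 were shorter than the median transcript and none was longer, against 22.6% and 12.7% of all lead transcripts. Of the 69, 47 were kept under every alternative that tested them. Their median tail was 115.0 nt, and 51.6% of the reads of the median member had tails of 30 to 120 nt. The shortest was Rpl27, with 84.0 nt in 24 reads and 86.5 nt in 31 reads. Rps10 followed with 84.1 and 93.7 nt. Rps27a, made as a fusion to ubiquitin, had 73.9 and 109.2 nt, a larger gap between the libraries. The longest member was Rps20 with 135.7 and 141.6 nt, which was shorter than the median transcript (adjusted p = 0.0352) but lost this call under most alternative settings. The 5 members without a call were Rpsa, Rps2, Rps27l, Rpl12 and Rpl22l1, at 120.2 to 134.9 nt.

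Nuclear genes of oxidative phosphorylation, whose products work beside the mitochondrially encoded subunits, had longer tails than those but were still mostly under the typical transcript. Of 48 lead transcripts, 25 were shorter than the median transcript (52.1%) and none was longer, against 22.6% and 12.7% of all lead transcripts. The list median was 126.2 nt. Of the 25, 13 were kept under every alternative that tested them. Cox7b2, a testis form of a cytochrome c oxidase subunit, had 87.6 and 99.96 nt in 40 and 54 reads. Cox7c had 124.8 and 112.2 nt. Cox8c, another testis form, had 127.6 and 133.9 nt. At the other end Atp5f1b, the catalytic beta subunit of ATP synthase, had 142.9 and 154.6 nt and no call. Subunits of the same enzyme in the respiratory chain therefore differed in tail length by genome of origin, with mt-Co1 near 70 nt and every listed nuclear subunit at or above 93.8 nt.

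Among other genes for protein synthesis and folding, the shares with a call lay nearer to those of all lead transcripts (22.6% shorter and 12.7% longer). Of 19 translation factors 5 were shorter (26.3%) and 1 was longer (5.26%). The 5 were 4 subunits of initiation factor 3 (Eif3e, Eif3h, Eif3g and Eif3k) and the cap-binding protein Eif4e, between 105.7 and 122.7 nt, and the longer one was Eif5, with 168.2 and 193.3 nt. The elongation factor Eef1a1 had 139.9 and 142.6 nt and no call. Of 30 heat shock proteins and chaperonins, 6 were shorter (20%) and 4 were longer (13.3%). The 6 included 5 subunits of the cytosolic chaperonin that folds tubulin and actin (Cct2, Cct3, Cct4, Cct5 and Tcp1), and Hsp90aa1. The 4 were Dnajb3, Dnajb14, Dnajc15 and the testis heat shock protein Hspa1l, at 162.5 to 175.4 nt. Of these 10 calls, those of Cct2, Tcp1 and Dnajb14 were kept under every alternative that tested them, and 7 were lost without the trend. The call of Eif5 was lost under 3 alternatives, and 3 of the 5 shorter translation factors kept theirs throughout.

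Genes of protein breakdown had calls in both directions, beside 22.6% shorter and 12.7% longer among all lead transcripts. Of 13 proteasome genes 6 were shorter (46.2%), namely the core subunits Psmb4, Psmb5, Psmb6, Psmb7 and Psma3 and the regulatory ATPase Psmc3. The 2 longer ones were Psma6, with 171.3 and 160.7 nt, and Psme4, the activator PA200 of spermatid proteasomes, with 171.4 and 172.0 nt, and both calls were lost without the trend and with log2 of the mean tail. The calls of Psmb4, Psmb5, Psmb6 and Psmb7 were kept throughout. Of 23 genes of ubiquitin and its conjugation, 5 were longer (21.7%) and 2 were shorter (8.70%), and all 7 calls were lost without the trend. The shorter ones were the polyubiquitin gene Ubb, with 132.1 nt in 335 reads and 134.7 nt in 505 reads, and Ube2s. The longer ones included the ubiquitin ligase genes Rnf138 (163.3 and 168.4 nt) and Rnf151.

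**Figure D3:**
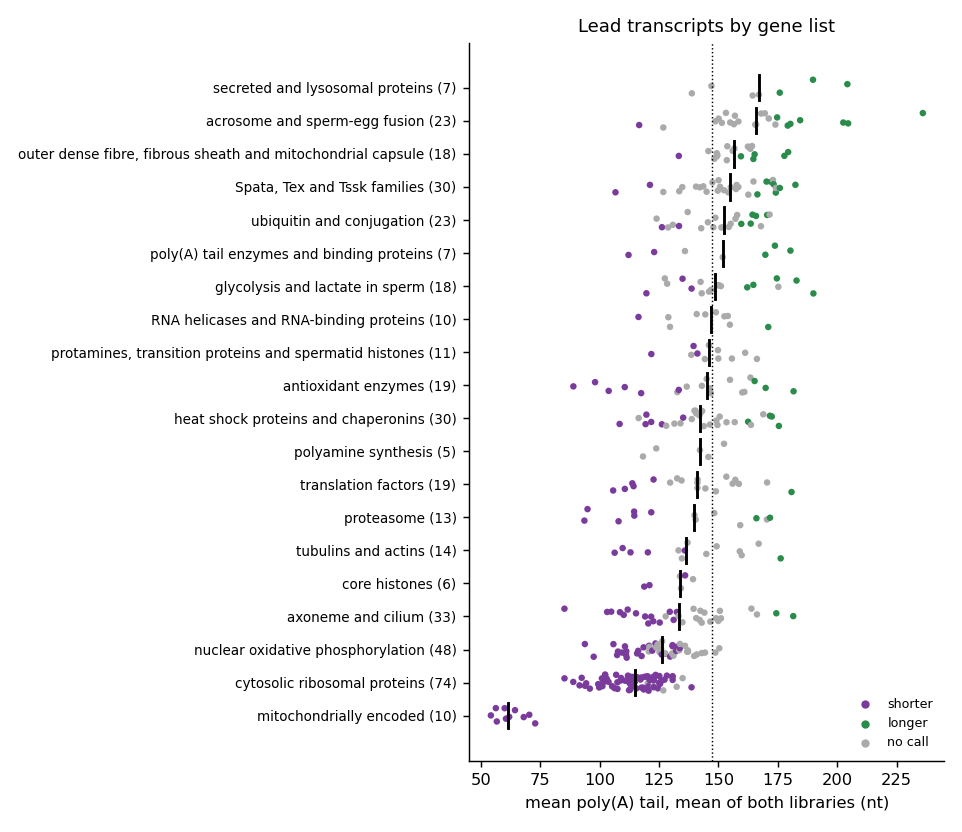
Mean poly(A) tail of lead transcripts (x axis, nt, mean of both libraries) for each gene list with at least 5 members (rows, number of members in parentheses). Points are transcripts, purple where shorter and green where longer than the median transcript at an adjusted p under 0.05 (limma); thick bars are list medians and the dotted line is the median of all lead transcripts, 147.2 nt. The mitochondrially encoded, ribosomal and oxidative phosphorylation lists lie to the left of the line, and the acrosome list lies mostly to its right.

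Of the lists of germ cell genes, that of the acrosome, the vesicle over the sperm nucleus that is released before fertilization, had the longest tails. Of 23 lead transcripts in this list, 7 were longer than the median transcript (30.4%) and 1 was shorter (4.35%). Among all lead transcripts the shares were 12.7% and 22.6%. In the mean of both libraries 21 of the 23 lay above the median transcript, as did 599 of all 1238 lead transcripts. The list median was 165.9 nt, and 5 of the 7 longer ones were kept under every alternative that tested them. Acrv1, a structural protein of the acrosome at chr9:36693220-36698843 (4 exons, plus strand, GRCm38), had 249.4 nt in 25 reads of replicate 1 and 222.7 nt in 35 reads of replicate 2. This was 88.0 ± 7.96 nt (SE) longer than the median transcript (adjusted p = 0.000107). Tails above 210 nt made up 64.0% of its reads in replicate 1 (Wilson 95% interval 44.5 to 79.8%) and 60% in replicate 2 (43.6 to 74.4%), against 9.24% and 10.2% of all reads. Zpbp, which binds the zona pellucida, had 206.6 and 198.5 nt, and Spaca1, an inner acrosomal membrane protein, had 193.4 and 215.8 nt. Adam3 and Adam5, both sperm surface proteins, had 181.6 and 178.9 nt and 186.4 and 163.0 nt. The shorter member was Ly6k, a surface protein of germ cells, with 110.8 and 122.5 nt.

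Among named lead transcripts that each library read 20 times or more, the 12 longest were Acrv1, Zpbp, Defb19, Fam217a, Clu, Cd55b, Ms4a20, Galntl5, Syce1, Iqcf1, Spata20 and Txndc8. Defb19, a defensin-like gene, had 197.0 and 191.2 nt in 52 and 66 reads. Clu, a secreted chaperone that is abundant in Sertoli cells, had 188.3 and 191.4 nt in 59 and 88 reads. Cd55b, a complement regulator of the germ line, showed a wider gap between the mice, with 201.4 and 176.5 nt. Fam217a likewise had 181.8 and 203.8 nt, and Txndc8, a thioredoxin of spermatids, had 174.3 and 188.9 nt. These 12 were picked for their mean tail among transcripts with a call, so that lying above the median transcript follows from the choice. Acrv1 was first in both, and the libraries gave the other 11 in different orders.

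With fewer reads, a still longer tail was recorded for Gm5373, which was chosen after its values were seen. It is a processed transcript without a coding frame at chr8:71824641-71853261 in GRCm38. Its mean was 304.0 nt in 12 reads and 277.8 nt in 17 reads, the highest value in each library. Tails above 210 nt made up 91.7% and 88.2% of its reads. Cst9, a cystatin of Sertoli cells, was also under the minimum of 20 reads and had 212.6 and 196.0 nt in 17 and 26 reads.

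The 3′ ends of the transcripts at the extremes are shown because cleavage at the poly(A) signal sets where the tail begins. Each line gives the last 30 bases of the annotated lead transcript, 5′ to 3′ (GRCm38), with the signal AATAAA or its variant ATTAAA in capitals.
Acrv1, chr9:36698814-36698843, plus strand: tcttttttgcAATAAAttgctATTAAAgaa
Zpbp, chr11:11279626-11279655, minus strand: tagaagcAATAAActtactttgaaaaactg
Clu, chr14:65981518-65981547, plus strand: aatccAATAAAagccgccttgcgatacgtg
Odf1, chr15:38226706-38226735, plus strand: gtaggaaacttaatacagaattgcatctga
Rpl27, chr11:101445500-101445529, plus strand: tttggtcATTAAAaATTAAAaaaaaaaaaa
Rps10, chr17:27630418-27630447, minus strand: tattgAATAAActttaaagaaaaacatgtc
Cox7b2, chr5:71442824-71442853, minus strand: taacaaaagaAATAAAattcattcaaaatt
Long-tailed and short-tailed transcripts both carried the signal, and the 30 bases of Odf1 held neither form. Among 1145 nuclear coding lead transcripts with an annotated end, 79.04% held AATAAA or ATTAAA on the transcribed strand in the last 50 bases. The share was 80.1% of the 146 longer ones and 80.9% of the 256 shorter ones. The run of A at the annotated end of Rpl27 was 13 bases long, and over all 1145 transcripts the length of such a run had a Spearman correlation of -0.02 and 0.01 with the mean tail in replicates 1 and 2.

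The sperm tail was covered by separate lists for the structures around the axoneme and for the axoneme itself. In the list of outer dense fibre, fibrous sheath and mitochondrial capsule, which surround the axoneme, 5 of 18 lead transcripts were longer than the median transcript and 1 was shorter, against 12.7% and 22.6% of all lead transcripts, with a median of 156.4 nt. Odf1, the major protein of the outer dense fibres at chr15:38219203-38226735 (2 exons, plus strand), had 181.6 nt in 177 reads and 177.1 nt in 277 reads. It was 31.3 ± 2.67 nt (SE) longer than the median transcript, with an adjusted p of 7.62e-05. Smcp, of the mitochondrial capsule, had 159.2 and 159.8 nt in 208 and 263 reads (adjusted p = 0.00691). The other longer ones were the fibrous sheath proteins Fscb and Txndc2, and Gapdhs, the sperm form of a glycolytic enzyme that is bound to the sheath, whose lead transcript is annotated for nonsense-mediated decay. The calls of Smcp, Gapdhs and Txndc2 were lost without the trend of the variance on read number, and those of Odf1 and Fscb were kept under every alternative that tested them. Gpx4, a selenoenzyme that becomes part of the capsule, was shorter with 129.7 and 137.0 nt, a call that was lost under most alternatives. Akap4, the main protein of the fibrous sheath, had 140.4 and 156.2 nt and no call.

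The axoneme is the microtubule core of the sperm tail with its motors. Of 33 lead transcripts in its list, 15 were shorter than the median transcript and 2 were longer, against 22.6% and 12.7% of all lead transcripts, and the median was 133.2 nt. The difference between these lists was not tested. Spag6, of the central apparatus, had 82.6 and 87.8 nt in 17 and 22 reads. Tekt1, a filament protein inside the doublets, had 108.8 and 97.5 nt, and Rsph1, of the radial spokes, had 102.8 and 107.0 nt. The longer ones were Cfap276 (181.9 and 181.1 nt) and Cfap119 (174.5 and 174.2 nt). Of the 15, 7 were Dynlt1 and Dynlt2a genes of dynein light chains. Reads may be uncertain between gene copies within each family (Dynlt1 or Dynlt2a), whose identity was not measured here. Without the Dynlt1 and Dynlt2a genes, a choice made after seeing the data, 8 of 25 were shorter and 2 were longer, with a median of 140.7 nt. Of the 15 shorter calls, 8 were kept under every alternative that tested them. Reads are likewise uncertain between the near-identical alpha tubulin genes Tuba3a and Tuba3b. These encode the microtubule subunit of germ cells and had 108.5 and 110.9 nt and 116.6 and 109.4 nt. Of 14 tubulin and actin genes 5 were shorter and 1, Actg2, was longer.

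The most abundant transcripts were those of sperm chromatin, and their tails were close to the typical length. Protamines and transition proteins replace histones as the spermatid nucleus compacts. Prm1 had 138.6 nt in 1455 reads and 143.7 nt in 2417 reads, Tnp1 had 139.1 and 140.0 nt in 872 and 1414 reads, and both were shorter than the median transcript (adjusted p = 0.00215 and 0.00189). The differences were small, -6.88 ± 1.09 nt (SE) for Prm1 and -8.48 ± 1.295 nt for Tnp1. Prm2 (145.1 and 146.9 nt) and Tnp2 (148.4 and 151.6 nt) had no call. Prm3, a less abundant and acidic member of the family, was shorter with 126.2 and 117.3 nt. In the whole list of 11 genes 3 were shorter (27.3%) and none was longer, against 22.6% and 12.7% of all lead transcripts. The calls of Prm1 and Tnp1 were lost without the trend of the variance on read number and when only transcripts with at least 50 reads set the reference. When the reference was the mean over all reads, Prm1 lay 1.43 nt above it with no call. Prm2 lay 6.28 nt above it and had a call as longer. The median member of the list had 23.1% of its reads at 30 to 120 nt, against 30.4% for the median lead transcript.

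Core histone genes, which the protamines replace, included 3 shorter ones of 6 (50%) and none longer, with a median of 134.03 nt. Among all lead transcripts 22.6% were shorter and 12.7% were longer. H2ac18 had 112.7 and 124.9 nt, and the replacement histone gene H3f3b had 117.9 and 124.1 nt. Genes of the Spata, Tex and Tssk families were named for expression in the testis. Of 30, 7 were longer (23.3%) and 2 were shorter (6.67%), with a median of 154.7 nt. Without the trend 5 of the 7 were lost. Spata20 had 182.6 and 182.2 nt. Spata6 is needed for the sperm neck, and its lead transcript, annotated as a processed transcript without a coding frame, had 174.8 and 169.5 nt.

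Enzymes of sperm energy supply held both directions. Of 18 genes, 5 were longer (27.8%) and 3 were shorter (16.7%), against 12.7% and 22.6% of all lead transcripts. The longer ones were the sperm glycolytic enzymes Pgk2 (157.9 and 166.4 nt), Gapdhs (158.7 and 170.7 nt) and Aldoart2 (174.0 and 175.1 nt) and the transporters Slc2a3 and Slc16a7. The shorter ones were Ldhc, the germ cell lactate dehydrogenase, with 138.5 nt in 332 reads and 138.9 nt in 511 reads, its relative Ldhal6b and the pyruvate dehydrogenase subunit Pdha2. Of these 8 calls, that of Slc2a3 was kept under every alternative that tested it and the other 7 were lost under at least 1. Of 19 lead transcripts listed for antioxidant enzymes 6 were shorter (31.6%) and 3 were longer (15.8%). Of the 6, 5 were kept throughout, and of the 3, Txndc8. Among the 5 was a transcript named as a pseudogene of Gpx4 and annotated as a processed transcript without a coding frame. Whether its reads came from Gpx4 was not tested. Within 1 enzyme family, the glutathione transferase Gstm5 had 172.8 and 166.9 nt and Gstm1 had 113.8 and 107.4 nt, with no overlap between the libraries, and the call of Gstm5 was lost without the trend. Of 5 genes of polyamine synthesis none had a call, and Odc1 encodes its rate-limiting enzyme. Its coding transcript had 158.5 and 164.1 nt in 14 and 24 reads, and its lead transcript, annotated for nonsense-mediated decay, had 150.1 and 154.6 nt in 12 and 28 reads.

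Few markers of somatic cells passed the read minimum, and their tails differed widely. RNA came from the whole testis, so the cell of origin of a read was not measured. The paper also reports Insl3 and Ptgds mRNA in sorted spermatids. Insl3, a hormone made by Leydig cells, had 168.3 nt in 206 reads and 183.4 nt in 302 reads and was 27.8 ± 3.05 nt (SE) longer than the median transcript (adjusted p = 0.000289). Cyp17a1, an androgen-synthesis enzyme of the same cells, had 100.6 nt in 21 reads and 95.4 nt in 34 reads. It was shorter (limma, adjusted p = 0.000937), as was Fdx1, another listed Leydig cell marker, with 120.6 and 113.7 nt. The mean tails of Insl3 and Cyp17a1 lay 77.8 nt apart. Of the Sertoli cell markers, Clu and Cst9 were longer, Aard was shorter with 109.4 and 128.0 nt, and the protease Ctsl had 160.7 and 168.1 nt and no call. The list of secreted and lysosomal proteins, which shares Insl3, Clu, Cst9 and Ctsl with these lists, had a median of 167.1 nt over 7 genes. Of these, 3 were longer (42.9%) and none was shorter, against 12.7% and 22.6% of all lead transcripts. Ptgds, a secreted prostaglandin synthase, had 156.3 and 177.9 nt in 17 and 35 reads (adjusted p = 0.0802). No gene of the peritubular, macrophage, endothelial and erythroid lists passed the read minimum.

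The enzymes and binding proteins of the tail were themselves measured. Of 7 lead transcripts listed, 3 were longer (42.9%) and 2 were shorter (28.6%), against 12.7% and 22.6% of all lead transcripts. Tent5c, a poly(A) polymerase of the cytoplasm, had 171.0 nt in 42 reads and 168.6 nt in 56 reads and was longer than the median transcript (adjusted p = 0.00981). Papolb, the testis poly(A) polymerase, and Pabpn1, the nuclear poly(A)-binding protein, were longer as well, with 184.9 and 162.6 nt and 169.8 and 190.8 nt. Pabpc6 and the deadenylation cofactor Btg1 were shorter, with 97 and 127.3 nt and 109.4 and 136.5 nt. Each of these 5 calls was lost under at least 1 alternative setting, those of Tent5c, Papolb, Pabpc6 and Btg1 without the trend on read number. The call of Btg1 was lost under most alternatives. The cytoplasmic poly(A)-binding proteins Pabpc1 and Pabpc2 had no call. Among 10 RNA helicases and RNA-binding proteins of germ cells, 1 was longer and 1 was shorter (10% each), beside 12.7% and 22.6% over all. The longer one was Ybx3 (156.7 and 185.2 nt). Its call was lost with the median tail, with log2 of the mean tail and without the trend. The shorter one was Larp7, whose call was kept under every alternative that tested it. Ybx1, Ybx2, Ddx4 and Ddx25 had no call. All 3 spermatocyte markers that passed, Sycp3, Hspa2 and Mael, had no call.

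The number of peaks was examined in the 45 transcripts that each library read 100 times or more. In 38 of them each library had 1 peak. In 7 of these, which were 6 mitochondrial mRNAs and the copy Gm28437, the peak lay between 53.5 and 70.5 nt in the mean of the libraries, and in the other 31 it lay between 100.5 and 186.0 nt with a median of 171.0 nt. The peak of Odf1 was at 174 and 175 nt, that of Smcp at 169 and 173 nt, that of Prm2 at 158 nt in both libraries, and that of Insl3 at 182 and 185 nt. The lowest of the 31 were the alpha tubulins, at 112 and 108 nt for Tuba3a and at 115 and 86 nt for Tuba3b.

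Pgam2, a phosphoglycerate mutase of glycolysis at chr11:5801640-5803733 (minus strand), was the only one of the 45 with 2 peaks in both libraries. They lay at 73 and 174 nt in replicate 1 and at 69 and 178 nt in replicate 2, with the trough at 108 and 113 nt. Below the trough lay 29% of its 100 reads and 33.7% of its 163 reads. Its mean, 142.2 and 142.7 nt, fell between the peaks. The density at the trough was 38.6% and 52.3% of that at the lower peak. In 6 transcripts the libraries differed in the number of peaks (Rpl41, Rplp0, Rps20, Eef1a1, H1f9 and Pabpc1). With a narrower kernel of 10 nt or a prominence of 10%, 6 transcripts had 2 peaks in both libraries, Pgam2 among them, and with a prominence of 30% only Pgam2 did.

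**Figure D4:**
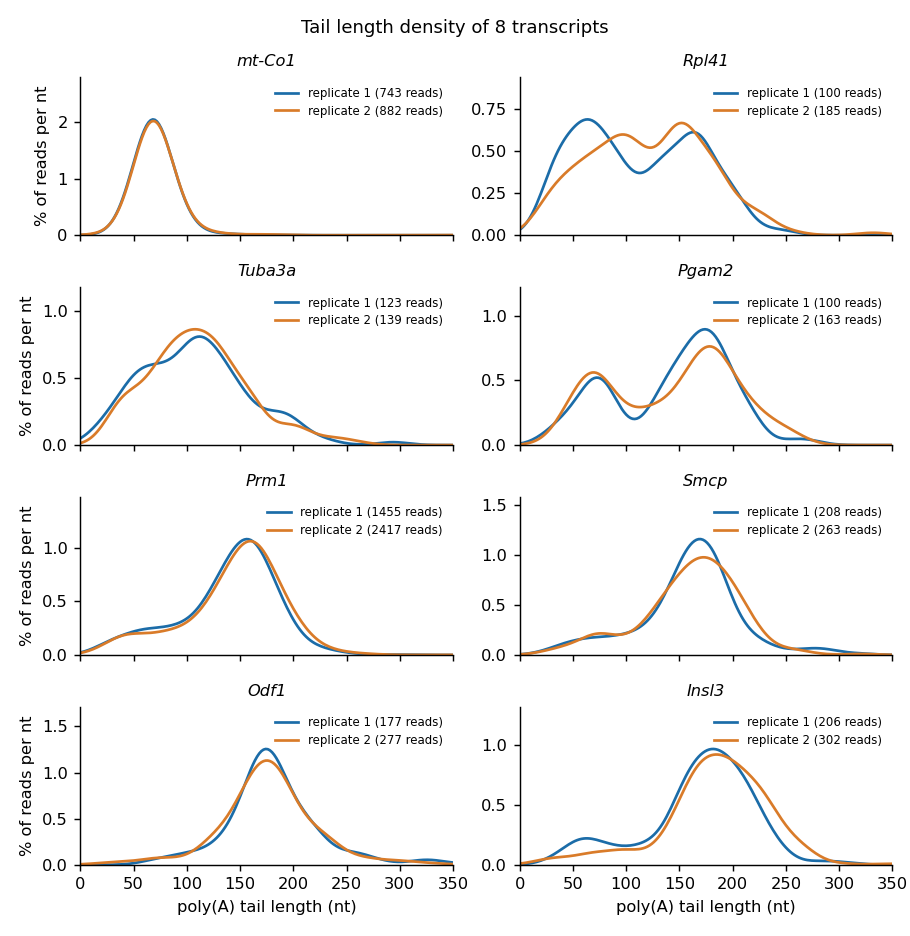
Gaussian kernel densities (bandwidth 15 nt) of poly(A) tail length (x axis, nt) in 8 lead transcripts, as percent of reads per nt (y axis, scaled for each panel), with 1 line for each wild-type vehicle library and its read number. mt-Co1 had 1 narrow peak at 68 and 69 nt, Pgam2 had 2 peaks in both libraries, and Prm1, Smcp, Odf1 and Insl3 each had 1 peak between 156 and 185 nt.

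The spread of tails within a transcript followed the same division. In the 45 transcripts the SD averaged over the libraries ran from 15.4 to 60.5 nt. In the 7 of mitochondrial sequence it was 15.4 to 21.8 nt, and in the other 38 it was 44.6 to 60.5 nt, without overlap. The 5 narrowest were mt-Cytb, mt-Atp6, mt-Co1, mt-Co3 and Gm28437, with SDs of 13.5 to 19.8 nt in single libraries. The 5 widest were H1f9, Fhl4, Eef1a1, Rplp0 and Pabpc1, with SDs of 55.4 to 65.5 nt. Their means, 126.6 to 156.6 nt, were unremarkable. Prm1 (45.3 and 46.1 nt) and Odf1 (45.3 and 46.7 nt) were among the narrower nuclear transcripts while their means differed by 38.2 nt.

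The read number of a transcript bore little relation to its tail. The 10 most read lead transcripts were Prm1, Prm2, Tnp1, Tnp2, mt-Co1, mt-Co2, mt-Co3, Ldhc, Ubb and mt-Atp6, and they took 13.3% and 14.3% of all reads. Their tails covered 61.9 to 149.97 nt. Across all 1475 transcripts Spearman's rho between mean tail and read number was -0.08 in replicate 1 and -0.13 in replicate 2, a weak correlation in data where the points share a library. In 4 equal bins of read number the median tail was 151.0, 149.0, 148.4 and 144.4 nt from the least to the most read bin. The bin with the most reads held all 10 mitochondrial mRNAs. The share of transcripts with a call was 8.13% longer and 8.13% shorter in the least read bin and 20.3% and 36.3% in the most read one.

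**Figure D5:**
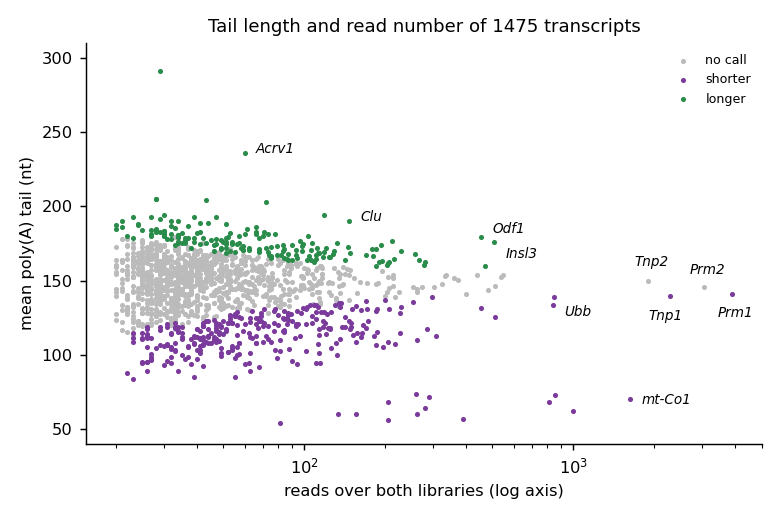
Mean poly(A) tail (y axis, nt, mean of both libraries) against the number of reads over both libraries (x axis, log scale) for the 1475 transcripts, coloured by call as longer (green), shorter (purple) or none (grey). The protamine and transition protein transcripts lie at the right between 139.5 and 149.97 nt, and mt-Co1 lies far below them at 70.4 nt.

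Transcript length showed a clearer order. Among 1145 nuclear coding lead transcripts in 4 bins of length, the bin with the shortest transcripts (335 to 929 bases) had median tails of 134.4 and 136.6 nt in replicates 1 and 2. The next bins had 144.2 and 146.8 nt, 147.1 and 150.6 nt, and 151.8 and 156.8 nt for transcripts of at least 2627 bases. In the shortest bin 119 of 287 were shorter than the median transcript and 25 were longer, and in the longest bin 19 of 286 were shorter and 56 were longer. Spearman's rho with transcript length was 0.24 and 0.29, with the coding length 0.27 and 0.29, and with the length of the 3′ UTR 0.10 and 0.15. Ribosomal and oxidative phosphorylation genes have short mRNAs, and without these 2 lists rho with transcript length was 0.14 and 0.19 over 1024 transcripts.

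Transcripts of 1 gene had similar tails. In 187 genes more than 1 transcript passed the read minimum, 424 transcripts in all. The median range of mean tails within a gene was 9.28 nt, and the SD within genes was 8.89 nt against 20.2 nt over all 424 transcripts. Transcripts of a gene share exons, and the aligner assigned a read of shared exons to a single transcript, so these values are not independent. The widest range, 44.8 nt, was in the ubiquitin-conjugating enzyme gene Ube2d3, from 120.7 to 165.5 nt over 3 transcripts, the least read of which had 11 reads in 1 library.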

How the data were processed

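Nanopore direct RNA sequencing (kit SQK-RNA002) was done by the authors on RNA selected with oligo(dT) beads, which can lose short tails. Per the methods and labels, Guppy called the bases, Minimap2 placed reads on the GENCODE transcriptome (GRCm38), Deeplexicon read the barcodes, and reads were retained when both the barcode and the Nanopolish tail estimate passed. The authors had kept only contigs with at least 10 reads in 2 replicates of some group, so the totals are not the full depth. The deposited tables used were raw read counts per transcript (whole numbers, not normalized), and the tail length per read in nt as Nanopolish gave it. Counts equalled the reads with a tail in every transcript of both libraries. The table named 118 reads more than once and held 2 tails under 1 nt in these libraries, all kept. The authors' deposited comparison tables (log2 fold changes and p-values from DESeq2) and the other groups were not used here.

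The mean tail of each transcript in a library, minus the median over transcripts, was tested against 0 with limma 3.58.1 (R 4.3.3; lmFit, then eBayes letting the variance follow log2 of the mean read number), two-sided, adjusted by Benjamini-Hochberg over 1475 transcripts at 0.05. The test was checked on simulated data. Names came from the files for 1441 transcripts and from GENCODE vM21, also on GRCm38, for 16 more. The other 18 stayed unnamed, and 1453 were found in that annotation. Sequences were read from the RefSeq copy of GRCm38.p6. Named genes were the 12 longest and 12 shortest called lead transcripts that each library read 20 times or more, the 10 most read, the 5 widest and 5 narrowest, those with 2 peaks, the most read of each of 27 gene lists, and 11 fixed genes; others were named as list members or after their values were seen. Of the list genes, 10 were on more than 1 list. The members, gene lists and rules were chosen with earlier results of these data known, so a list's counts are descriptions and no set test was run. Per the study's statement on allocation, littermates entered the groups, in 1 cohort. Which mice were littermates is not given in the sources used here. The p-values measure the spread between the 2 mice with their runs.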

Additional observations from a re-analysis of the deposited data

How the results depend on the processing

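The test against the median transcript was repeated under 9 alternatives. The counts moved by more than 1.5 times to 74 longer with the median tail of a transcript, 93 with log2 of the mean tail and 94 without the trend. They moved to 172 shorter with at least 20 reads, where 625 transcripts were tested, and to 55 longer and 59 shorter with at least 50 reads, where 164 were tested. Centred on the mean over all reads they were 366 longer and 202 shorter. Of the transcripts called in both, none changed direction under any of these. The other counts stayed within 1.5 times.

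Of 1082 values for 133 named genes, 930 kept direction and side of the threshold, 110 lost the call, 27 gained it and 15 turned direction. Centred on the mean over all reads, Prm1 lay at 1.43 nt, Eef1a1 at 1.53 nt, Pgam2 at 2.77 nt, H1f9 at 4.59 nt, Ddx25 at 4.75 nt, Ube2d3 at 5.85 nt and Prm2 at 6.28 nt. With the median tail, Pgam2 lay at 1.595 nt, H1f9 at 1.92 nt, Ddx25 at 0.67 nt and Akap4 at -0.02 nt. With at least 50 reads, Pgam2 lay at 0.958 nt, H1f9 at 2.78 nt and Prm2 at 4.47 nt, and with at least 20 reads Prm2 lay at 0.73 nt. Of these, Prm1 had a call before, and Prm2 gained one as longer with at least 50 reads (limma, adjusted p = 0.00115) and on the mean over all reads (0.00274). The cause was not tested.

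The overall mean of 139.7 nt became a median of 146.9 nt, and was 143.3 nt without mitochondrially encoded transcripts. The share at 30 to 120 nt, 35.5%, was 27.5% with a boundary of 100 nt, 34.9% in the 1475 transcripts and 32.5% without mitochondrially encoded ones, and that at 120 to 210 nt, 53.7%, was 61.7%, 54.6% and 56.2%. Transcripts with 2 peaks in both libraries were 6 with a kernel of 10 nt and 6 with a prominence of 10%. With at least 50 reads 125 of 164 had 1 peak and 10 had 2. A single library gave 2 to 6 transcripts with 2 peaks and 39 to 43 with 1. All reads of a library gave 1 peak under each kernel and prominence tried, which was added after seeing the data, as was the correlation without the ribosomal and oxidative phosphorylation lists. With all transcripts of a gene in place of the lead transcript, 7 of 23 list medians moved by more than 1 SD between the libraries, at most by 14.8 nt.

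The median transcript was 146.6 to 149.5 nt with 1 library left out, which gives no test. No paired analysis was possible because only 1 group was used. With 2 mice a transcript read 10 times has an imprecise mean tail (median SE 7.96 nt over all), so transcripts without a call may still differ.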

Other observations

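By annotated class, transcripts other than protein coding ones had tails of the same order. The 29 transcripts annotated for nonsense-mediated decay had a median mean tail of 158.7 nt, with 5 longer and 1 shorter than the median transcript. The 23 with a retained intron had 155.4 nt (3 longer and 2 shorter) and the 36 processed transcripts had 154.0 nt (7 longer and 6 shorter). The 1351 coding ones had 147.7 nt (163 longer and 292 shorter). Over all 1475 transcripts of every class, 12.3% were longer and 21.1% were shorter. The 4 unprocessed pseudogenes, at 60.4 to 74.0 nt, were the chromosome 1 copies of mitochondrial genes.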
